A study of Rattus norvegicus with 4 samples.

Results

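The libraries compared here are the p300 chromatin immunoprecipitation sequencing (ChIP-seq) libraries of differentiating rat oligodendrocytes, labelled d3, and of oligodendrocyte precursor cells (OPCs), 2 of the 4 libraries of the study. They were taken by their titles. OPCs of Sprague Dawley rats were isolated by differential detachment from the cortex on postnatal day 2. They were grown with PDGF-AA (10 ng/ml) and bFGF (20 ng/ml), which are mitogens, and differentiated with thyroid hormone T3 (15 nM) and ciliary neurotrophic factor (10 ng/ml). What d3 means beyond the label is not given. No genetic change is named for either stage, and each stage held 1 library. The labels do not say how many pups or cultures went into it. The other 2 libraries, made with an antibody to the histone deacetylase Hdac3 at the same stages, served for comparison. No input library was used here. No test between stages was possible, and every 95% interval below covers counting error only, so that the stage and the library cannot be told apart.

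The acetyltransferase p300 is a coactivator without sequence-specific binding of its own. Transcription factors bring it to enhancers and promoters, where it acetylates histones, among them lysine residues of histone H3 at active enhancers. A ChIP-seq library can therefore hold narrow sites as well as broad stretches of raised signal over active chromatin. Oligodendrocyte precursors that leave the cell cycle switch on the genes of myelin and of its lipids, while mitogens such as PDGF-AA keep them dividing. Hdac3 removes acetyl groups as the enzyme of the NCoR and SMRT corepressor complexes.

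At what scale p300 moved between the stages was asked with aligned reads on chromosomes 1 to 20 whose deposited score, a whole number of up to 100 read here as a mapping quality, was at least 80. There were 2607428 such reads in OPCs and 3564091 at d3. The d3 reads were thinned at random to 2607428, so that equal tag counts mean equal density in calls and ratios alike. Each read, moved 100 bp along its own strand, is called a tag. A 1 kb bin held 1.02 tags per library on average, a 50 kb window 51.0 and a 500 kb window 509.6. Coordinates are those of rn4, the build of the files. No rn4 annotation was used here, and therefore no gene, exon or intron is named and the labelled cell types were not checked against marker genes.

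Beyond counting error, p300 differed between d3 and OPC at every width examined, but at 1 kb most single bins were too shallow to show it. The measure was the spread of the d3 to OPC ratio that is left after the binomial error of the counts is taken out, as a standard deviation on the log2 scale. This measure weights a window by about the square of its tags, so densely covered windows count most. It was 0.22 (95% interval over bins 0.20 to 0.23) for 1 kb bins, 0.17 (0.17 to 0.18) for 50 kb windows and 0.13 (0.12 to 0.13) for 500 kb windows. Counting alone gives a standard deviation of 1.69, 0.28 and 0.09 at these widths for a window of average depth. At 1 kb the counting error was thus the larger by far, and at 500 kb it was the smaller. The squared difference of the counts, divided by its value under counting error alone, averaged 1.01 at 1 kb, 1.29 at 50 kb and 2.64 at 500 kb, where 1 is the value with no other spread.

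Most of the spread was broad. Of the variance of the ratio seen in 1 kb bins, 65.3% was still there in 50 kb windows, 33.8% in 500 kb windows and 9.97% in 5000 kb windows. Tags of the opposite strands are separate draws from the same libraries, and the product of their differences, which needs no assumed error, gave 0.23, 0.18 and 0.13 for 1 kb, 50 kb and 500 kb. Hdac3, treated in the same way at the same depth, had a spread of 0.20 (0.19 to 0.22) at 1 kb, close to that of p300. At 50 kb the Hdac3 value was 0.10 (0.099 to 0.110) and at 500 kb it was 0.077 (0.072 to 0.081), both below the p300 intervals. These intervals describe the 4 libraries, and the difference between the proteins has no replicate check.

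**Figure D1:**
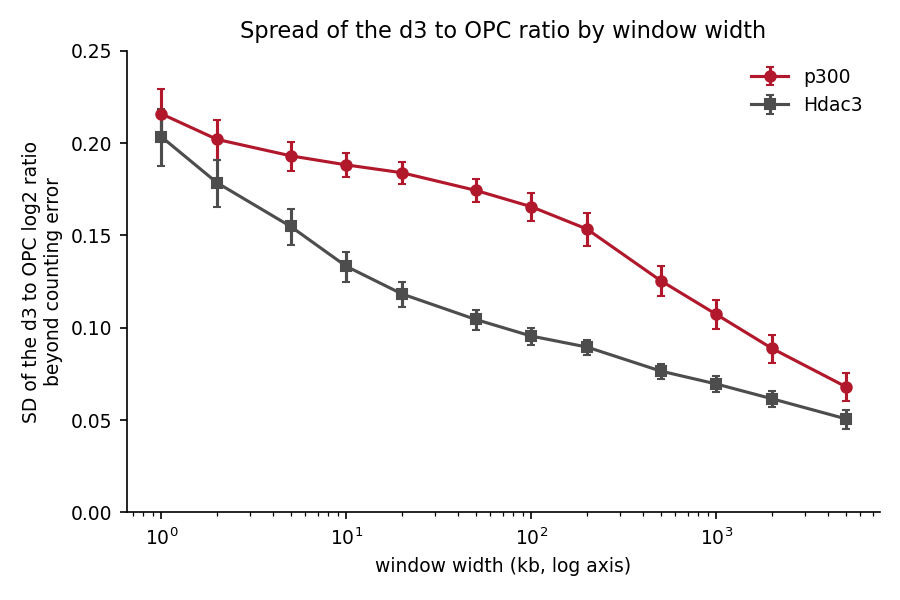
Standard deviation of the d3 to OPC log2 ratio beyond counting error (vertical axis) against window width in kb (log axis), for p300 and Hdac3 at equal depth, with bars for the 95% interval over windows. The 2 proteins lie close together at 1 kb, and p300 lies above Hdac3 at wider windows, at 0.17 against 0.10 for 50 kb.

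Narrow p300 regions were few and mostly called at 1 stage only. To be called, a 1 kb bin needed a Poisson upper tail under 1e-05 and at least 3-fold the background, taken as the highest of 3 means (genome, surrounding 10 kb, surrounding 50 kb). This gave 120 regions in OPCs and 99 at d3, together 192 regions, of which 187 spanned a single bin. Both stages called 27 of them, which was 22.5% of the OPC regions and 27.3% of the d3 regions. The regions held 0.0769% of the tags in either library. The interval of the ratio lay above 1 in 37 regions and below 1 in 30. All 30 of the latter were called in OPCs alone, and 36 of the 37 at d3 alone, a direction set by the call itself. For the 10485 bins with at least 10 tags over both libraries, taken whether called or not, 3.2% had an interval that excluded 1 (2.16% higher and 1.04% lower at d3). Counting error alone gives at most 2.5% on each side, and neither share exceeded that. The ratio of each of these bins was at least 1.5-fold, which at counts this low follows largely from the interval itself. With the minimum tags doubled, 10 bins passed, 9.09% of those tested, 7 higher and 3 lower at d3.

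At the 5 sites of highest mean fold among regions called at both stages, no difference between the stages was seen beyond counting error. Chromosome 1 from 145514001 to 145516000 held 72 tags in OPCs and 78 at d3, a ratio of 1.08 (0.776 to 1.51). Chromosome 3 from 144001 to 145000 held 22 and 28 tags, and chromosome 5 from 114470001 to 114471000 held 24 at each stage. On chromosome 5 from 2704001 to 2705000 there were 24 and 25 tags, and on chromosome 13 from 36740001 to 36741000 there were 19 and 18. Each of these 5 regions, the highest by mean fold among the 27 shared ones, was also called for Hdac3 at both stages, as were 19 of the 27. In each of the 5, Hdac3 held more tags than p300 at both stages, such as 96 and 78 on chromosome 13. Without an input library, p300 signal there cannot be told from signal raised in every library. A call at both stages also favours like counts. Over all 27 the pooled ratio was 1.1 and the median log2 ratio 0.11 (-0.11 to 0.36).

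Among called regions with at least 20 tags, 55 in all, 5 had an interval above 1 and none an interval below 1. Among all 1 kb bins with at least 20 tags, called or not, 9.09% were past 1.5-fold with an interval that excluded 1. These were 7 higher and 3 lower bins, so the 5 regions are not set apart by their number. The largest increase was on chromosome 10 from 76258001 to 76259000, with 2 tags in OPCs and 18 at d3 (ratio 9.0, 2.15 to 80). Chromosome 1 from 262032001 to 262033000 followed with 4 and 23 tags (5.75, 2.0 to 22.9), and there the Hdac3 libraries held 0 and 1. On chromosome 19 from 41602001 to 41603000 the counts were 5 and 17 (3.40, 1.20 to 11.8), and on chromosome 3 from 8833001 to 8835000 they were 14 and 40 (2.86, 1.52 to 5.69). All 4 were called at d3 alone, and their ratios follow in part from that choice. The fifth largest ratio, on chromosome 3 from 34577001 to 34578000 with 6 and 14 tags, had an interval of 0.842 to 7.41, which includes 1. The other region with an interval above 1, named after its values were seen, was chromosome 18 from 24374001 to 24375000, called at both stages, with 24 and 42 tags (1.75, 1.04 to 3.02). The largest decreases ran from 18 to 8 tags on chromosome 16 from 27375001 to 27376000 (ratio 0.444, 0.167 to 1.07) to 14 and 8 tags on chromosome 4 from 7339001 to 7340000 (0.571, 0.208 to 1.46). All 5 had intervals that included 1.

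The difference in called regions was smaller on the strand that had not chosen them. Regions called on plus-strand tags at d3 alone (27) had a d3 to OPC ratio of 3.43 on that strand and of 1.30 (0.935 to 1.82) on the minus strand, while those called on the minus strand (31) went from 3.24 to 0.935 (0.706 to 1.24). For regions called in OPCs alone the ratio went from 0.300 to 0.807 (0.582 to 1.12) and from 0.236 to 1.03 (0.714 to 1.49). Every one of these 4 intervals included 1. Pooled over each of these 4 sets, tags of the other strand stood at 2.03-fold to 2.98-fold over the local background at both stages. Single regions varied, and some called at 1 stage held no tag at the other. A pooled difference between the stages was not detectable on the other strand at this depth. The median log2 ratio over all 192 regions was -0.28 with an interval of -0.56 to 0.15. It took the opposite sign under other settings, 0.20 at a Poisson level of 1e-08 and 0.55 against the genome mean alone.

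In 50 kb windows the changes were small but moved beyond counting error in both directions. Of 47820 windows with at least 20 tags, 4.71% had a ratio of at least 1.5-fold whose interval excluded 1, with 1060 (2.22%) higher and 1190 (2.49%) lower at d3. By the interval alone 6.87% were called, 3.59% higher and 3.28% lower, where counting error alone gives at most 2.5% on each side. The 5 largest ratios rested on few tags. Chromosome 1 from 59000001 to 59050000 had the highest, with 3 tags in OPCs and 19 at d3 (6.33, 1.86 to 33.4), and the best covered of the 5 was chromosome 1 from 104950001 to 105000000, with 10 and 39 (3.9, 1.91 to 8.76). The lowest ratio was on chromosome 13 from 32700001 to 32750000, where 22 tags stood against 3 (0.136, 0.0261 to 0.454). The next 4, on chromosomes 2, 4, 16 and 1, held 16 to 18 tags in OPCs and 4 at d3.

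In 500 kb windows 18.5% of 4995 windows with at least 200 tags had an interval that excluded 1, 455 (9.11%) higher and 468 (9.37%) lower at d3. A ratio of at least 1.5-fold was reached by 7 windows (0.14% of those tested), all higher at d3, while the lowest ratio of any window was 0.695. With all scores, with a score of at least 50 and with a score of 100 only, 5 windows were higher and 1 was lower. With a limit of 25% more tags at d3, or 25% more in OPCs, 2.7% of windows passed, 76 (1.52%) higher and 59 (1.18%) lower. Hdac3 at the same depth had 1.77% of 5027 windows past that limit, 13 (0.259%) higher and 76 (1.51%) lower. The difference between the proteins was not tested.

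The largest increase over 500 kb was on chromosome 14 from 89000001 to 89500000, where p300 went from 839 to 1434 tags (ratio 1.71, 1.57 to 1.86). Plus-strand tags rose from 403 to 708 and minus-strand tags from 436 to 726. Hdac3 held 769 and 824 tags there (1.07, 0.970 to 1.18). Chromosome 8 from 108500001 to 109000000 went from 715 to 1172 (1.64, 1.49 to 1.80), and chromosome 13 from 45500001 to 46000000 from 915 to 1493 (1.63, 1.5 to 1.77). Chromosome 17 from 85000001 to 85500000 followed with 546 and 876 tags (1.60, 1.44 to 1.79), and chromosome 3 from 147000001 to 147500000 with 595 and 922 (1.55, 1.4 to 1.72). Hdac3 was also higher at d3 on chromosome 8 (1.15, 1.04 to 1.28) and on chromosome 17 (1.30, 1.15 to 1.47). Its interval included 1 in the windows on chromosomes 13 and 3.

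The largest decreases over 500 kb were milder. Chromosome 3 from 137500001 to 138000000 fell from 246 to 171 tags (ratio 0.695, 0.569 to 0.848). Chromosome 2 from 13000001 to 13500000 held 396 and 277 tags (0.699, 0.598 to 0.818), chromosome 5 from 32500001 to 33000000 held 428 and 305 (0.713, 0.613 to 0.827), chromosome 17 from 70500001 to 71000000 held 709 and 506 (0.714, 0.635 to 0.801) and chromosome 4 from 138500001 to 139000000 held 327 and 235 (0.719, 0.605 to 0.852). The Hdac3 interval included 1 in all 5, as it did in most windows. Of 5027 Hdac3 windows of 500 kb, 12.5% had an interval that excluded 1, 270 higher and 359 lower at d3.

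**Figure D2:**
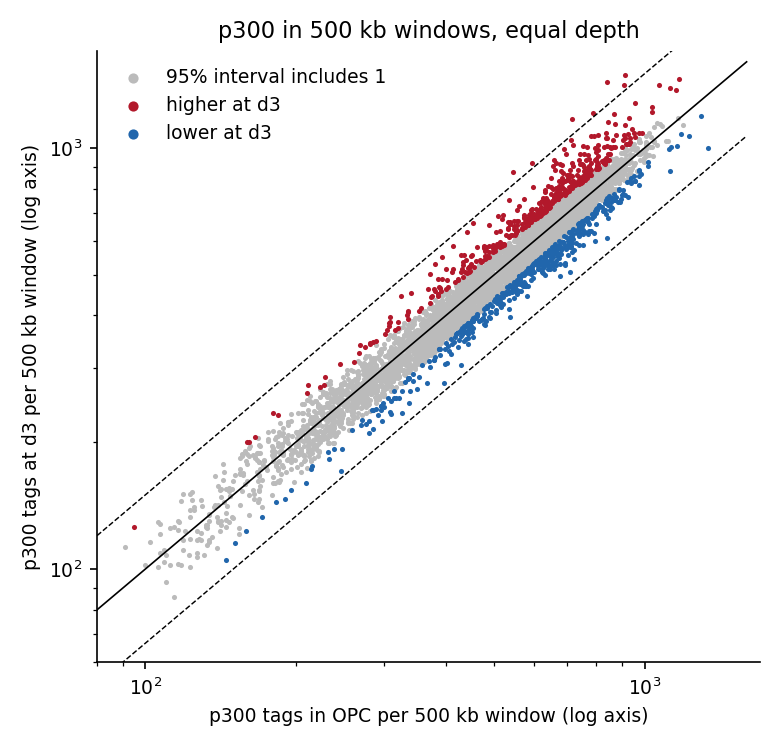
Tags of p300 at d3 (vertical, log axis) against OPCs (horizontal, log axis) in 4995 windows of 500 kb at equal depth. The solid line marks equal counts and the dashed lines 1.5-fold, which 7 windows pass, all higher at d3 at this score limit.

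Measured on reads that had not chosen them, the few largest increases over 500 kb kept most of their size, and 50 kb windows kept a small part of theirs. The 7 windows of 500 kb chosen as at least 1.5-fold higher on the plus strand had a ratio of 1.53 (1.45 to 1.61) on the minus strand, and the 13 chosen on the minus strand had 1.49 (1.43 to 1.55) on the plus strand. Windows chosen as at least 1.5-fold lower gave 0.801 (0.716 to 0.896) for 5 chosen on the plus strand and 0.931 (0.811 to 1.07) for 4 chosen on the minus strand. A single window held 46.9% of the tags of those 5, and a single window 31.9% of the tags of those 4. At the limit of 25%, the 127 and 141 windows chosen as higher had 1.23 and 1.21 on the other strand, with both intervals above 1. At the limit of 25%, the 142 and 136 windows chosen as lower had 0.913 (0.899 to 0.927) and 0.913 (0.899 to 0.928) on the other strand. At 50 kb and 1.5-fold the higher windows had 1.18 (1.16 to 1.19) and 1.20 (1.18 to 1.21), and the lower ones 0.930 (0.916 to 0.945) and 0.920 (0.906 to 0.934). Single 1 kb bins gave unlike answers. The 242 higher bins chosen on the plus strand had 1.55 (1.32 to 1.83) on the other strand and the 253 chosen on the minus strand 1.14 (0.992 to 1.32), while lower bins had 0.963 (0.8 to 1.16) and 0.960 (0.801 to 1.15).

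Reads with a score under 80, 757397 in OPCs and 1005894 at d3, had no part in the choice of windows. In the 7 windows of 500 kb past 1.5-fold these reads gave a ratio of 1.57 (1.46 to 1.68). In the 1060 higher and 1190 lower windows of 50 kb they gave 1.20 (1.18 to 1.22) and 0.934 (0.916 to 0.952). In the 227 higher bins of 1 kb they gave 1.63 (1.39 to 1.91), a larger ratio than at 50 kb, with 28.5% of these tags in a single bin. In the 109 lower bins they gave 0.843 (0.673 to 1.06), with 47.8% of the tags in a single bin. Across all windows tested, the log2 ratio from plus-strand tags correlated with that from minus-strand tags at r = 0.064 for 10485 bins of 1 kb, 0.087 for 47820 windows of 50 kb and 0.360 for 4995 windows of 500 kb. The windows are not independent and share libraries and base composition.

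Most 50 kb windows with more p300 at d3 stood alone, and some formed longer stretches. The 1716 windows whose interval lay above 1 made 1406 separate stretches, of which 1218 were single windows and 125 were pairs. A run was defined, after the data had been seen, as 3 or more adjacent 50 kb windows whose intervals all lay on the same side of 1, so that 150 kb is the shortest it can be. There were 63 runs with more p300 at d3 on 17 of the 20 autosomes, which covered 12.4 Mb or 0.485% of autosomal sequence, and 6 runs with less, which covered 1.20 Mb. Set beside this, single 50 kb windows were nearly even, with 3.59% higher and 3.28% lower. For Hdac3, with 2.6% of 48168 single windows higher and 2.67% lower (5.28% in all), the same rule gave 3 runs higher and 5 lower. The ratio of p300 in the 63 runs was 1.36 at the lowest, 1.60 at the median and 2.04 at the highest. With every d3 read kept the runs numbered 73 higher and 16 lower.

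The 9 longest runs spanned 300 or 350 kb each. The highest ratio of all was on chromosome 14 from 88950001 to 89250000, with 468 tags in OPCs and 954 at d3 (2.04, 1.82 to 2.28). Nearly as high was chromosome 13 from 45350001 to 45650000, with 629 and 1264 (2.01, 1.82 to 2.21), where all 30 bins of 10 kb held more tags at d3. Chromosome 17 from 84750001 to 85100000 had 571 and 1050 tags (1.84, 1.66 to 2.04). Chromosome 8 from 108500001 to 108850000 had 536 and 978 (1.82, 1.64 to 2.03).

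On chromosome 3 there were 2 such runs, one from 34350001 to 34650000 with 434 and 787 tags (1.81, 1.61 to 2.04) and one from 146900001 to 147200000 with 503 and 891 (1.77, 1.59 to 1.98). Chromosome 1 from 262000001 to 262300000 had 579 and 1027 tags (1.77, 1.60 to 1.97), and this run held the narrow region at 262032001 named above. The remaining runs were chromosome 13 from 74950001 to 75300000 with 541 and 939 tags (1.74, 1.56 to 1.93) and chromosome 2 from 24250001 to 24600000 with 484 and 830 (1.71, 1.53 to 1.92). In all 9 the reads of a score under 80 also rose, with ratios from 1.45 (1.17 to 1.80) on chromosome 3 from 146900001 to 2.42 (1.97 to 2.99) on chromosome 17.

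**Figure D3:**
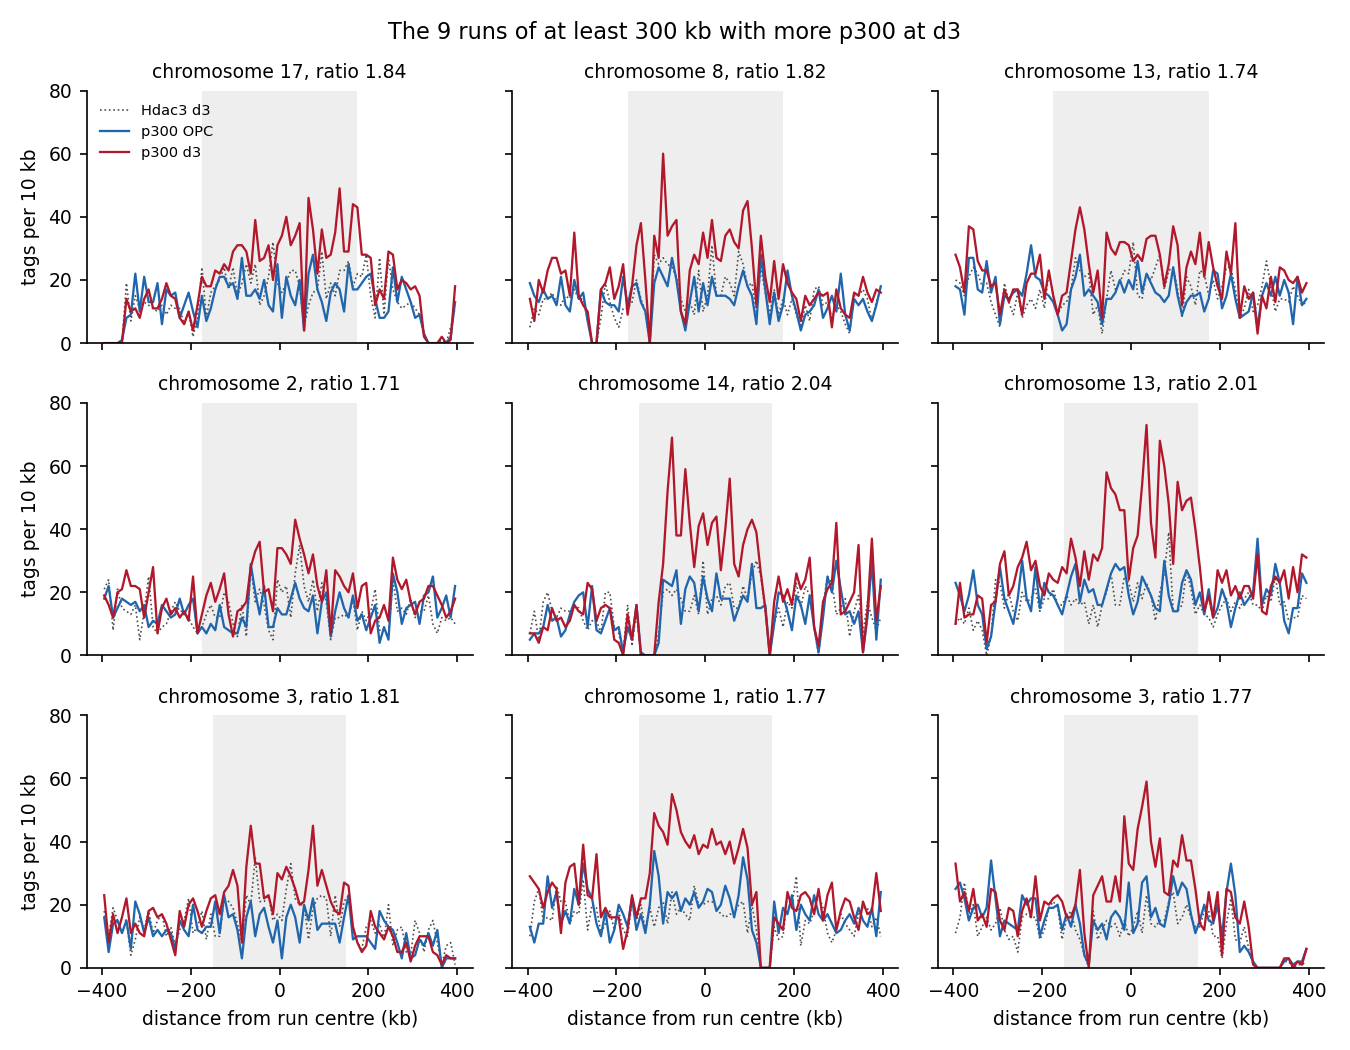
Tags per 10 kb bin (vertical axis) against distance from the run centre in kb, for p300 in OPCs and at d3 and for Hdac3 at d3, at equal depth. Grey marks the run, and the panels show the 9 runs of at least 300 kb, in which p300 at d3 lies above p300 in OPCs over most of the run and comes back toward it outside.

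The 6 runs with less p300 at d3 had ratios of 0.585 to 0.7. The longest was chromosome 1 from 175550001 to 175850000, where p300 fell from 990 to 693 tags (0.7, 0.634 to 0.772), and 28 of its 30 bins of 10 kb were lower. On chromosome 6 from 104750001 to 105000000 there were 525 and 339 tags (0.646, 0.562 to 0.742), and on chromosome 17 from 70850001 to 71050000 there were 328 and 223 (0.680, 0.571 to 0.808). The other 3 spanned 150 kb each. The lowest ratio was on chromosome 10 from 10200001 to 10350000, with 246 and 144 tags (0.585, 0.473 to 0.722). Reads of a score under 80 were lower in 5 of the 6 runs, with the interval below 1 in 3.

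Within the runs the increase was spread over many bins. The choice of the runs favours bins with more tags at d3. In the 63 runs 90.6% of 1240 bins of 10 kb held more p300 tags at d3, beside 44.6% of all 10 kb bins with tags. Of their 12400 bins of 1 kb, 6 were called at either stage, in 5 runs, and the largest count in any 1 kb bin was 24. The 63 runs held 5 of the 192 called regions on 0.485% of autosomal sequence, so called regions were denser there than over all autosomes. Of these 5 regions 4 were called at d3 alone, which the choice of the runs favours. Without the called bins the ratios of the runs still went from 1.36 to 2.04. Reads of a score under 80 gave 4695 tags in OPCs and 9081 at d3 in these runs, a ratio of 1.46 (1.41 to 1.51) once scaled to their own totals. They were on the same side in 62 of 63 runs, with an interval above 1 in 32. The exception was chromosome 9 from 73250001 to 73450000 (0.922, 0.7 to 1.22).

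Raised signal ran on past the edges of the runs. The first 50 kb on either side of the 63 runs had a ratio of 1.14 (1.1 to 1.17) and the window from 50 to 100 kb had 1.17 (1.14 to 1.20). From 250 to 300 kb away the ratio was 1.05 (1.02 to 1.08). The windows next to a run are there because their own interval included 1 or lay on the other side, which keeps the first value low. Over the whole genome, the change shared by windows a given distance apart fell in the same way. Neighbouring 50 kb windows shared 80.1% of the variance of the p300 ratio, windows 200 kb apart 37.2%, windows 500 kb apart 19.1% and windows 1000 kb apart 6.66%. For Hdac3 the shares were 66.5% for neighbours and still 31.9% at 500 kb and 25.9% at 1000 kb, of a variance that was itself smaller.

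**Figure D4:**
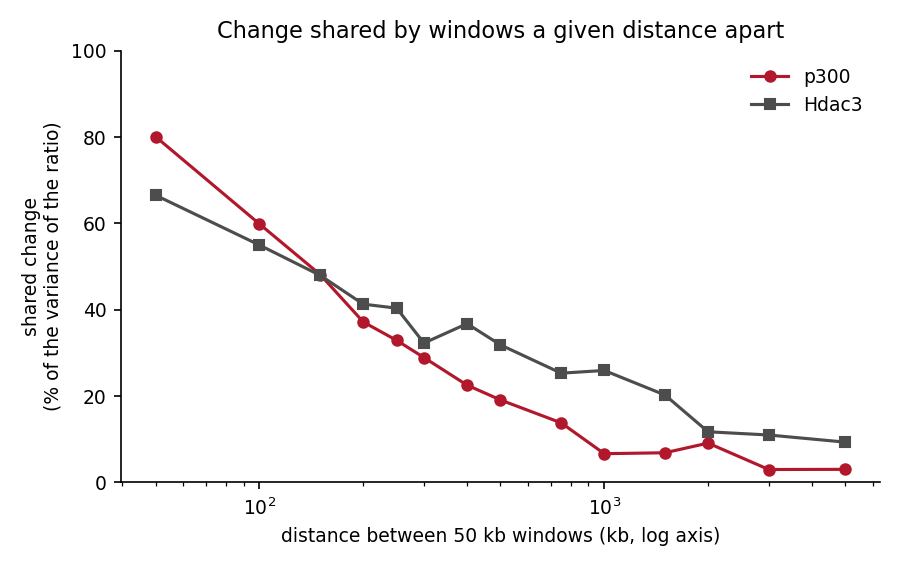
Share of the variance of the d3 to OPC ratio, beyond counting error, that 50 kb windows have in common (vertical axis, %) against the distance between them in kb (log axis). The p300 curve starts at 80.1% for neighbours and is at 6.66% by 1000 kb, where Hdac3 is at 25.9%.

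Outside the runs the p300 ratio also moved beyond counting error. The runs were defined on tags of both strands, so reads with a score under 80, which took no part, are used here. In the higher 50 kb windows past 1.5-fold these reads gave 1.13 (1.1 to 1.15) without the 162 windows that touched a run. In the lower ones they gave 0.938 (0.920 to 0.957) without the 13 that touched one. In the 500 kb windows past the limit of 25% they gave 1.19 (1.15 to 1.23) in higher windows without the 42 that touched a run, and 0.917 (0.891 to 0.945) in lower windows without 4. All 7 windows of 500 kb past 1.5-fold touched a run. Of the 227 higher bins of 1 kb 56 touched one, and without them the ratio was 1.57 (1.3 to 1.9). A single bin held 28.5% of the tags of the 227, and whether it touched a run was not recorded. The other strand gave 1.43 (1.20 to 1.72) outside runs for higher bins chosen on the plus strand. For those chosen on the minus strand it gave 0.975 (0.832 to 1.14).

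Hdac3 was also higher in the runs at d3, by less than p300. Pooled over the 63 runs the Hdac3 ratio was 1.13 (1.11 to 1.16), against 1.64 for p300. It was above 1 in 51 runs, with an interval above 1 in 25 and below 1 in 1, chromosome 10 from 47100001 to 47250000. In single runs it went from 0.809 to 1.53 with a median of 1.12. The p300 ratio divided by the Hdac3 ratio had an interval above 1 in 54 of the 63 runs. The same p300 tags had chosen the runs, which favours p300 over Hdac3 in this ratio. The p300 reads that did not choose them gave 1.46. The ratio of the 2 ratios was 1.93 (1.62 to 2.28) on chromosome 14 from 88950001, where Hdac3 held 446 and 472 tags, and 1.77 (1.49 to 2.11) on chromosome 3 from 146900001, where Hdac3 held 421 at each stage. The lowest among the 9 longest was 1.20 (1.03 to 1.41), on chromosome 17 from 84750001, where Hdac3 rose from 436 to 667 tags (1.53, 1.35 to 1.73). In the 6 runs with less p300 the Hdac3 ratio was 0.959 (0.896 to 1.03).

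**Figure D5:**
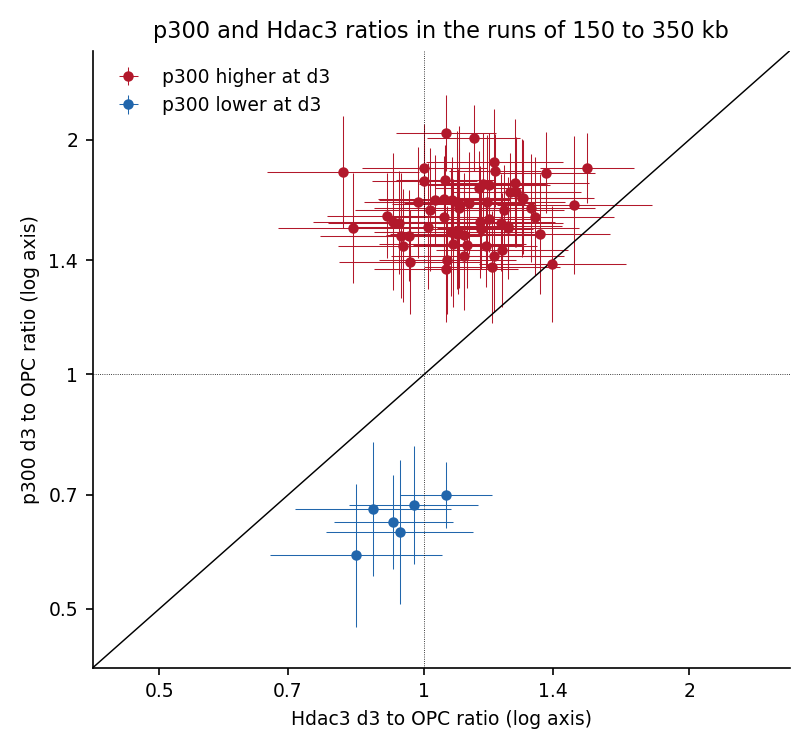
The d3 to OPC ratio of p300 (vertical, log axis) against that of Hdac3 (horizontal, log axis) in the 63 runs with more and the 6 runs with less p300 at d3, with 95% counting intervals. The diagonal marks equal ratios, and the higher runs lie mostly above it, with p300 at 1.36 to 2.04 and Hdac3 at 0.809 to 1.53.

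Over all windows the changes of the 2 proteins were only loosely alike. The log2 ratios correlated at r = 0.040 over 47725 windows of 50 kb and at r = 0.105 (Spearman rho = 0.088) over 4994 windows of 500 kb. Counting error pulls these values toward 0. A related measure, from count differences and not log2 ratios, takes it out of both variances but weights windows by their tags. Its value was 0.357 at 50 kb and 0.222 at 500 kb, and the gap from r need not be counting error alone. The windows share position and base composition, so the values are descriptions.

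The change of p300 was largest where chromatin gave many reads in the Hdac3 libraries, which the p300 ratio does not use. In the 10% of 50 kb windows with the fewest Hdac3 tags (mean 43.0 over both stages) the p300 ratio was 0.983 (0.974 to 0.992), and in the 10% with the most (mean 169.6) it was 1.05 (1.04 to 1.05). The spread beyond counting error rose from 0.11 (0.046 to 0.14) to 0.22 (0.21 to 0.24) between these groups. In the upper group of 4782 windows, 189 were at least 1.5-fold higher with an interval above 1 and 60 lower. In the lower group, also of 4782 windows, the numbers were 88 and 107. Over all 47820 windows tested, 2.22% were higher and 2.49% lower by this rule. The runs with more and with less p300 both lay in such windows, at 154.4 and 144.4 Hdac3 tags per 50 kb against 101.9 overall. More tags also narrow the interval, so calls are easier there, and the share that depth has in this was not tested.

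Wider stretches of modest change were found in both directions. Adjacent 500 kb windows with intervals on the same side of 1 formed 81 stretches of 1 Mb or more with higher p300 (96.0 Mb). There were 68 such stretches with lower p300 (88.0 Mb), and the pooled ratios were 1.21 and 0.846. The same tags had chosen the stretches, which favours large changes. Reads of a score under 80, which took no part, gave 1.16 (1.14 to 1.17) and 0.895 (0.881 to 0.909). The Hdac3 ratio was 1.04 (1.03 to 1.05) over the 81 higher stretches. Over the 68 lower ones its interval, 0.994 to 1.011, included 1. For Hdac3 windows the same rule of adjacent intervals gave 25 pairs of windows and 3 longer stretches higher at d3. It gave 39 pairs and 16 longer stretches lower. The longest Hdac3 stretch, a lower one, spanned 3500 kb. The longest p300 stretch was a lower one on chromosome 1 from 131000001 to 134500000, with 4323 tags in OPCs and 3635 at d3 (0.841, 0.804 to 0.879). It was followed by 2 of 3000 kb on chromosome 4, from 32000001 to 35000000 with 3555 and 3023 tags (0.850, 0.810 to 0.893) and from 47500001 to 50500000 with 3748 and 3174 (0.847, 0.807 to 0.888). The Hdac3 ratio in these 3 was 1.01, 0.987 and 1.05. The longest higher stretches spanned 2500 kb, on chromosome 1 from 260000001 to 262500000 with 3367 and 4378 tags (1.30, 1.24 to 1.36) and on chromosome 13 from 74000001 to 76500000 with 2892 and 3710 (1.28, 1.22 to 1.35). Both enclosed one of the runs above. A lower stretch of the same length lay on chromosome 10 from 8000001 to 10500000, with 3469 and 2851 tags (0.822, 0.782 to 0.864).

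Whole chromosomes moved little. The d3 to OPC ratio was highest for chromosomes 13 (1.03, 1.03 to 1.04), 12 (1.03, 1.02 to 1.05) and 3 (1.02, 1.01 to 1.03). It was lowest for chromosomes 18 (0.976, 0.967 to 0.985), 6 (0.978, 0.971 to 0.985) and 7 (0.984, 0.977 to 0.991). The interval lay above 1 for 7 chromosomes, below 1 for 6 and included 1 for the other 7. Hdac3 ratios ranged from 0.963 on chromosome 12 to 1.03 on chromosome 11, and on chromosome 18, lowest for p300, the Hdac3 ratio was 1.03 (1.02 to 1.03).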

How the data were processed

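The deposited files list aligned reads, 1 line each, with start, end, strand and a score. The submitters' processing notes list rn4 as build and MACS 1.4.0 as a tool, with no role. For the aligner and filters, the sources used here give no name. Per the labels' protocols, libraries were made with a SOLiD fragment kit. The score deposited by the authors is a whole number from 8 to 100 on an undocumented scale. No 5' end occurred more than 1 time per strand among the autosomal reads of a library, which caps narrow sites. Autosomal reads numbered 3364825 (p300 OPC), 4569985 (p300 d3), 4163537 (Hdac3 OPC) and 8556198 (Hdac3 d3), and 77.5%, 78.0%, 72.7% and 75.1% had a score of at least 80. All 4 were thinned to 2607428 (seed 1).

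Read positions are as deposited. Ratios have exact conditional binomial (Clopper-Pearson) 95% intervals, and a ratio of 2 ratios has a normal approximation on the log scale. Log2 ratios used a pseudocount of 0.5. Medians have order-statistic intervals. The spread beyond counting error is a method-of-moments variance with an analytic interval over windows. Scripts used Python 3.11.15, numpy 2.4.6 and scipy 1.17.1 and were tested on simulated data. Regions named at 1 kb were the 5 largest and smallest ratios among called regions with at least 20 tags. The 5 highest by fold called at both stages were named as well. Windows were the 5 largest and smallest ratios, and at 500 kb also the others past 1.5-fold. Stretches of 500 kb windows were the longest. Runs of 50 kb windows were defined after the data were seen. The comparison, its members and its settings were chosen with earlier results of these data known. Alternatives were other score limits, seeds, thinning, window positions, calling rules and strands.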

Additional observations from a re-analysis of the deposited data

How the results depend on the processing

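Of 133 values recomputed under 19 alternatives, 103 stayed within their interval (for counts, within 1.5 times), 30 moved further and none reversed a value whose interval excluded 0. The spread beyond counting error stayed within its interval at all 3 widths under every alternative run. Regions called in OPCs and at d3 numbered 23 and 24 at a Poisson level of 1e-08, 312 and 270 with all scores, 222 and 194 with a score of at least 50, and 652 and 831 against the genome mean alone. With all d3 reads kept, d3 regions numbered 173. The median log2 ratio of called regions was -0.63 with 500 bp bins, 0.20 at 1e-08, 0.53 with all d3 reads kept and 0.55 against the genome mean, so its sign is not settled. The 336 bins of 1 kb past 1.5-fold (3.20% of those tested) became 815 (3.49%) with all d3 reads and 809 (3.20%) with all scores. They numbered 616 (3.20%) at a score of 50 and 221 (3.68%) at a score of 100. With the minimum tags doubled there were 10 (9.09%), 7 higher and 3 lower. At the limit of 25%, 135 windows (7 at 1.5-fold) of 500 kb passed. The 7 past 1.5-fold, all higher, became 5 higher and 1 lower under each of the 3 other score limits. Lower runs numbered 16 with all d3 reads and 13 at a score of 50, and higher runs 53 to 76 over all alternatives. The correlation between strands was 0.0431 at 1 kb without called bins, 0.0982 (all scores) and 0.0769 (score of 100) at 50 kb, and 0.389 (all d3 reads), 0.415 (all scores), 0.398 (score of 50) and 0.392 (windows moved) at 500 kb. That between p300 and Hdac3 changes was 0.0307 at 50 kb and 0.0741 at 500 kb with a score of 100. No paired analysis was possible because each group held 1 library. Depth limits single 1 kb bins, which held 1.02 tags per library.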

Other observations

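The 2 antibodies differed from each other more than the stages did. In 500 kb windows the spread of the p300 to Hdac3 ratio beyond counting error was 0.21 (0.21 to 0.22) in OPCs and 0.26 (0.26 to 0.27) at d3, against 0.13 for p300 between the stages. The p300 to Hdac3 ratio of a window in OPCs correlated with that at d3 at r = 0.772 over 4994 windows, from libraries that share no reads, and at r = 0.352 over 47725 windows of 50 kb. Windows are not independent, so these are descriptions.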
